A study of Mus musculus with 6 samples.

Results

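The genes examined here were 10 genes of endothelial activation, chosen by symbol from the 54429 genes of the count table. They comprise the leukocyte adhesion receptors Sele, Selp, Icam1, Icam2 and Vcam1, the NF-kB subunit genes Nfkb1, Nfkb2 and Relb, and the NF-kB inhibitors Nfkbia and Tnfaip3. Each was compared between primary aortic endothelial cells (EC) from adult, wild-type C57BL/6 mice transduced with a Meis1 overexpression vector (Meis1-OE) and the same type of cell transduced with a control vector (YFP-CTRL), with 3 independent replicates per condition. Both groups were exposed to vector for 48 h, sorted 72 h in for YFP, CD31 and VEC (VE-cadherin), and then grown again to confluency, so both carried a vector and had passed the same sort. The protocol names no inflammatory cytokine, and the promoter of the vector is not given in the sources used here. Ribodepleted RNA-seq gave 1 library per replicate. Libraries are named A, B and C after their columns, and where 3 values are given for a condition they stand in that order.

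Leukocytes leave the blood by rolling on endothelial selectins, then adhering firmly to immunoglobulin-type receptors, and then crossing the endothelial junctions. Much of this surface program is switched by NF-kB, a family of dimeric transcription factors that IkB proteins hold in the cytoplasm until the IKK kinase marks the IkB for destruction. NF-kB then induces adhesion receptors and chemokines, and also its own inhibitors, among them the IkB encoded by Nfkbia and the ubiquitin-editing enzyme encoded by Tnfaip3, which close the loop.

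In the classical pathway, the binding site of NF-kB is a kB motif near the start of its target genes. Sequence before the RefSeq start sites was taken for Sele and Icam1. Sele had the lowest p-value of the tested adhesion genes among the 10, and Icam1 was nearly uncounted. Sequence was also taken for the inhibitor genes Nfkbia and Tnfaip3, whose levels are a common readout of the pathway. The 250 bases before the start (RefSeq, build GRCm38.p6, the assembly of mm10) are printed 5′ to 3′ with kB-type matches in capitals. A match was GGG and CC with any 5 bases between them, or GGNNNTTCC, on either strand, and these forms overlap each other at many sites.
Sele, chr1:164047984-164048233, plus strand: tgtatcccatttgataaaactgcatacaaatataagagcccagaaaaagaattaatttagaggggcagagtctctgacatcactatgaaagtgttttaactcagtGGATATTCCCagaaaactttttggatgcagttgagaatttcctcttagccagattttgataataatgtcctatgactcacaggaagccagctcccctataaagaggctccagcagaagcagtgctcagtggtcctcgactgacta
Icam1, chr9:21015690-21015939, plus strand: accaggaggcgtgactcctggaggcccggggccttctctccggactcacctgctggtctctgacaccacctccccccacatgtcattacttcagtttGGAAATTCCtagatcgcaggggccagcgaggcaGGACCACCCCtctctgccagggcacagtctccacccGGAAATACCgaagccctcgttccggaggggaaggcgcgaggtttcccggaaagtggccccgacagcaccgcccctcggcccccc
Nfkbia, chr12:55492648-55492897, minus strand: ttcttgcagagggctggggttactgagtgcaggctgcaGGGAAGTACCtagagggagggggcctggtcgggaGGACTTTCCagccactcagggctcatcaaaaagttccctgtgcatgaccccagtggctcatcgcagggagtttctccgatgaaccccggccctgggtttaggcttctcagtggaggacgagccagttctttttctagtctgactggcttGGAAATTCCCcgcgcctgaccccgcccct
Tnfaip3, chr10:19015411-19015660, minus strand: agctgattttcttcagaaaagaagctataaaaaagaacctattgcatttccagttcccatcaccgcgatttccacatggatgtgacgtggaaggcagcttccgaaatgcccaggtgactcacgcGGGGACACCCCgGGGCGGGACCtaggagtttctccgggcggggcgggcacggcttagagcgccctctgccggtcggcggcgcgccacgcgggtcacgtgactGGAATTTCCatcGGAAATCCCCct
Of the 10 genes, 6 matched in the RefSeq table (Icam1, Sele, Selp, Nfkb2, Nfkbia and Tnfaip3), with 9 start sites in all, since Nfkb2 has 3 and Tnfaip3 has 2. The longer form was present before 9 of the 9 start sites and before 45.8% of all 32851 start sites in the table. The shorter form was also present before 9 of 9, against 15.7% of all start sites, and 11.3% of all start sites held both. The Sele start site used lies inside the span that RefSeq gives the gene, not at its first base. In Sele both forms fell on a single site, at positions -145 to -136 from the start. In Nfkbia there were matches at -212 to -203, -178 to -170 and -29 to -20. The core of the Meis binding motif, TGACAG on either strand, was present before 2 of the 9 start sites (Selp and the second start of Tnfaip3) and before 15.9% of all start sites. A match describes letters in this window and was not tested as a binding site.

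**Figure D1:**
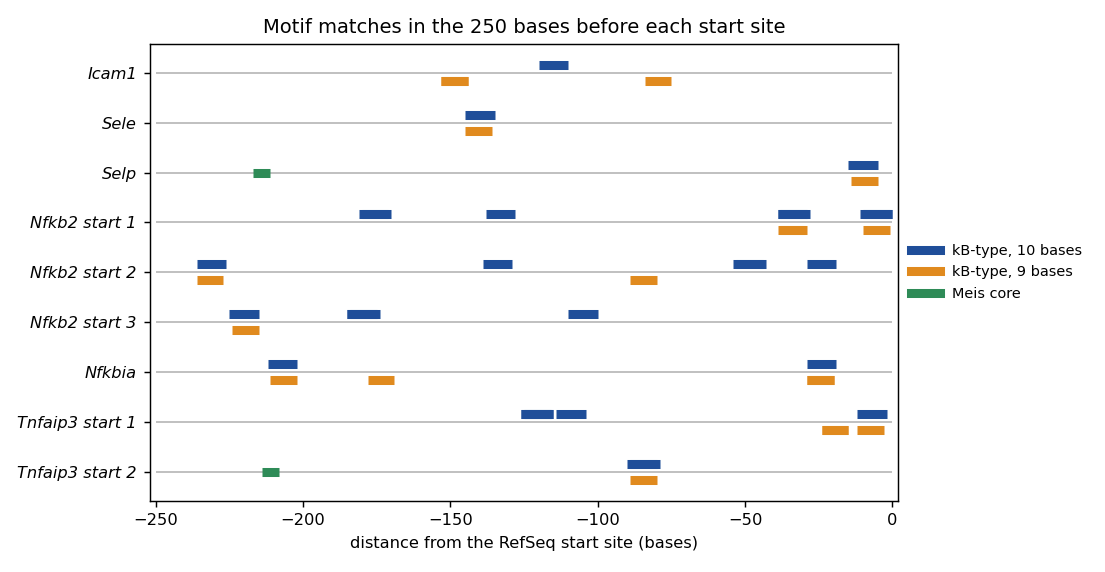
Positions of motif matches in the 250 bases before each of the 9 RefSeq start sites of the 6 matched genes; the x axis is the distance from the start site in bases, and bars mark kB-type matches of 10 bases (blue) and 9 bases (orange) and the Meis core (green). All 9 rows hold both kB forms, and 2 rows hold a Meis core.

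Library totals ran from 34176592 to 47956569 counts. Meis1 was at 1.15 to 1.87 CPM (counts scaled to equal library size, TMM-normalized) in YFP-CTRL and at 2961 to 3477 CPM in Meis1-OE libraries, as the labels state. All 12 endothelial markers examined were tested, and their summed level was 3838 to 4715 CPM in Meis1-OE and 4716 to 6606 CPM in YFP-CTRL libraries, with Cldn5 past the threshold upward and Tek downward. Of 10 macrophage markers, 5 (C1qa, C1qb, C1qc, Tyrobp and Adgre1) had no count in any library, and the sum of the list, 69.8 to 106 CPM with Meis1-OE and 65.1 to 140 CPM with YFP-CTRL, was nearly all Cd68. The sum of 6 lymphocyte markers was at most 0.677 CPM in any library. The sum of 11 mural and fibroblast markers was 15.8 to 17.9 CPM with Meis1-OE and 34.9 to 54.2 CPM with YFP-CTRL, and none passed the threshold. Most of this sum was Pdgfra, at 33.3, 49.1 and 15.6 CPM with YFP-CTRL and 11.7 to 11.9 CPM with Meis1-OE (adjusted p = 0.0598 from edgeR). In YFP-CTRL library C, Acta2 added 19.9 CPM. YFP-CTRL libraries differed among themselves more than Meis1-OE libraries did: the mean log2(CPM + 1) over 15 S-phase and G2/M genes (the proliferation score) was 4.73, 5.48 and 6.68 with YFP-CTRL (A, B, C), against 6.70 to 6.75 in Meis1-OE libraries. The score did not overlap between conditions and varied mostly among YFP-CTRL libraries. A fit with the score as covariate therefore rests largely on those libraries and cannot separate proliferation from condition. In bulk RNA, fewer cells that express a gene and less of its RNA per cell cannot be told apart.

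Of the 10 genes, 9 passed the filter on low counts and were tested, and none passed an adjusted p of 0.05 in either direction (quasi-likelihood test of edgeR on TMM-normalized counts, Benjamini-Hochberg adjustment over 16065 genes), where 6.87% of all tested genes did, 4.14% higher and 2.73% lower. At an unadjusted p under 0.05, 0 of the 9 were higher with Meis1-OE and 1 (Sele) was lower, against 26.2% of all tested genes, 12.8% higher and 13.4% lower. DESeq2 called 0 of the 10 higher and 1 (Sele) lower, where it called 12.3% of the genes to which it gave an adjusted p, 6.18% higher and 6.13% lower. Their median log2 fold change was -0.20, against 0.01 over all tested genes, with 2 positive and 7 negative values. The conditions did not overlap for 2 of the 9 tested genes, Sele and Nfkb2, and for 33.1% of all tested genes, 17.2% higher and 15.9% lower.

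Sele encodes E-selectin, an endothelial receptor for rolling leukocytes that is made on activation. Its level was 45.0, 68.4 and 64.6 CPM with YFP-CTRL and 35.3, 37.2 and 39.0 CPM with Meis1-OE. Every Meis1-OE library lay below every YFP-CTRL library, with YFP-CTRL library A nearest to them. Means were 37.1 ± 1.87 CPM for Meis1-OE and 59.3 ± 12.5 CPM for YFP-CTRL (SD, n = 3 each), 1.60-fold lower by the fit. This is a log2 fold change of -0.68 (standard error 0.17, 95% interval -1.08 to -0.28), with an adjusted p of 0.0603 from edgeR, and DESeq2 gave -0.69 with an adjusted p of 0.0158. Without YFP-CTRL library A the adjusted p was 0.0122 (log2 fold change -0.86), and leaving out YFP-CTRL library C gave 0.0421 (-0.63), in fits that called 2.63% and 15.2% of all tested genes lower and 3.73% and 16.5% higher. It rose to as much as 0.245 when one of the other libraries was left out.

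Selp encodes P-selectin, which endothelium stores in Weibel-Palade bodies and brings to the surface within minutes of stimulation, and which platelets carry too. It was at 342, 485 and 405 CPM with YFP-CTRL and 363, 365 and 344 CPM with Meis1-OE. The Meis1-OE libraries lay within the range of the YFP-CTRL libraries. Its log2 fold change was -0.20 (standard error 0.14, 95% interval -0.53 to 0.13, adjusted p = 0.405 from edgeR). Platelet markers were low, with a summed level of 2.72 to 3.78 CPM for 6 markers in Meis1-OE and 2.24 to 3.30 CPM in YFP-CTRL libraries. The most counted of them, Itga2b, had 56 to 118 counts per library. Gp9 alone of the platelet markers passed the threshold (log2 fold change 3.56, adjusted p = 0.0290 from edgeR), at 0.766 to 1.17 CPM in Meis1-OE libraries. Sele and Selp both lie on chromosome 1 (164039614 to 164058487 and 164115264 to 164150026, in GRCm38.p6 as for all positions given).

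Icam1 (chromosome 9, 21015940 to 21028814) encodes the main endothelial ligand of leukocyte beta2 integrins and is a standard NF-kB target, yet it was hardly counted. It had 4, 2 and 4 counts with Meis1-OE and 3, 12 and 4 counts with YFP-CTRL. All libraries but YFP-CTRL library B were within 1 count of the floor of 3 counts. Summed over libraries, it was at 0.0763 CPM in Meis1-OE EC (95% Wilson interval 0.0415 to 0.141) and at 0.150 CPM in YFP-CTRL EC (0.0960 to 0.234) of the total count, and the intervals, which cover counting error only, overlap. It did not pass the filter, and a fit of all counted genes gave it a log2 fold change of -1.09 (standard error 0.73, edgeR adjusted p = 0.509). A difference in Icam1 was not detectable at this depth. The deposited values of Icam1 in YFP-CTRL EC were not whole (2.70, 11.9 and 3.51), and how the counting divided reads among overlapping transcripts is not given in the sources used here. Its neighbours on chromosome 9, Icam4 (617 bases away) and Icam5, had at most 4 and at most 28 counts.

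Icam2 (chromosome 11, 106377656 to 106388139) encodes a beta2 integrin ligand of resting endothelium. Its level was 38.9, 87.0 and 91.1 CPM with YFP-CTRL, a 2.34-fold range, and 43.1, 46.2 and 48.7 CPM with Meis1-OE. YFP-CTRL libraries B and C stood above all Meis1-OE libraries and YFP-CTRL library A below them, so the conditions overlapped. A log2 fold change of -0.65 resulted (standard error 0.30, 95% interval -1.35 to 0.05, adjusted p = 0.216 from edgeR). The value was -0.49 without YFP-CTRL library B and -0.47 without YFP-CTRL library C. Without YFP-CTRL library A, Icam2 was lower in Meis1-OE EC with a log2 fold change of -0.97 (adjusted p = 0.00764 from edgeR). A fit with the proliferation score as covariate gave -1.20 (adjusted p = 0.0549 from edgeR).

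Vcam1 (chromosome 3, 116110020 to 116129688) encodes the ligand of the integrin VLA-4 and is induced by cytokines through NF-kB. It was at 78.4, 81.4 and 73.5 CPM with YFP-CTRL and 84.0, 85.4 and 77.1 CPM with Meis1-OE. The spread between replicates was small and the conditions overlapped. The log2 fold change of 0.08 (standard error 0.10, adjusted p = 0.669 from edgeR) had a 95% interval of -0.16 to 0.32, which spans 0.893-fold to 1.25-fold.

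None of the 3 NF-kB subunit genes passed the threshold. Nfkb1 (chromosome 3, 135584655 to 135691969), whose product is processed to a DNA-binding subunit of the classical dimer, was at 67.2, 70.8 and 73.0 CPM with YFP-CTRL and 65.8, 64.1 and 68.2 CPM with Meis1-OE. Only Meis1-OE library C reached the YFP-CTRL range. Its log2 fold change of -0.09 (adjusted p = 0.600 from edgeR) had a 95% interval of -0.32 to 0.14, and it was 0.05 when libraries were scaled by their totals alone.
Nfkb2 (chromosome 19, 46300994 to 46312400) encodes the precursor subunit of the alternative pathway and is an NF-kB target with kB-type matches before each of its 3 start sites. It was at 66.3, 76.0 and 70.0 CPM with YFP-CTRL and 85.4, 82.7 and 80.1 CPM with Meis1-OE. All Meis1-OE libraries lay above all YFP-CTRL libraries, as for 17.2% of all tested genes. The log2 fold change was 0.23 (standard error 0.10, 95% interval -0.02 to 0.47, adjusted p = 0.220 from edgeR), and the adjusted p over all alternatives ran from 0.0711 to 0.485.
Relb (chromosome 7, 19606217 to 19629438) encodes the partner of the Nfkb2 product. Its level was 23.6, 23.9 and 11.8 CPM with YFP-CTRL and 14.1, 15 and 14.6 CPM with Meis1-OE. YFP-CTRL libraries A and B stood above, and YFP-CTRL library C below, all Meis1-OE libraries. The log2 fold change of -0.44 (standard error 0.26, adjusted p = 0.326 from edgeR) shrank to -0.32 without YFP-CTRL library A and to -0.27 without YFP-CTRL library B. Without YFP-CTRL library C it was -0.72 (adjusted p = 0.00278 from edgeR), in a fit that called 31.7% of all tested genes, and a fit with the proliferation score as covariate gave 0.21 (adjusted p = 0.644 from edgeR).

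Nfkbia (chromosome 12, 55489409 to 55492647), the IkB gene of the feedback loop, was the most even of the 9 tested genes between conditions. It was at 55.0, 50.6 and 48.5 CPM with YFP-CTRL and 48.1, 49.0 and 52.6 CPM with Meis1-OE. The conditions overlapped throughout. The log2 fold change of -0.04 (adjusted p = 0.845 from edgeR) had a 95% interval of -0.29 to 0.21, or 0.816-fold to 1.16-fold, and it was 0.10 on library totals and 0.06 with the covariate.
Tnfaip3 (chromosome 10, 19000910 to 19015410) was at 52.0, 70.1 and 77.4 CPM with YFP-CTRL and 63.4, 56.3 and 46.3 CPM with Meis1-OE. It was the gene with the widest spread among Meis1-OE libraries, 1.37-fold, of the 9 tested. The conditions overlapped, with a log2 fold change of -0.27 (standard error 0.18, 95% interval -0.70 to 0.17, adjusted p = 0.399 from edgeR).

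**Figure D2:**
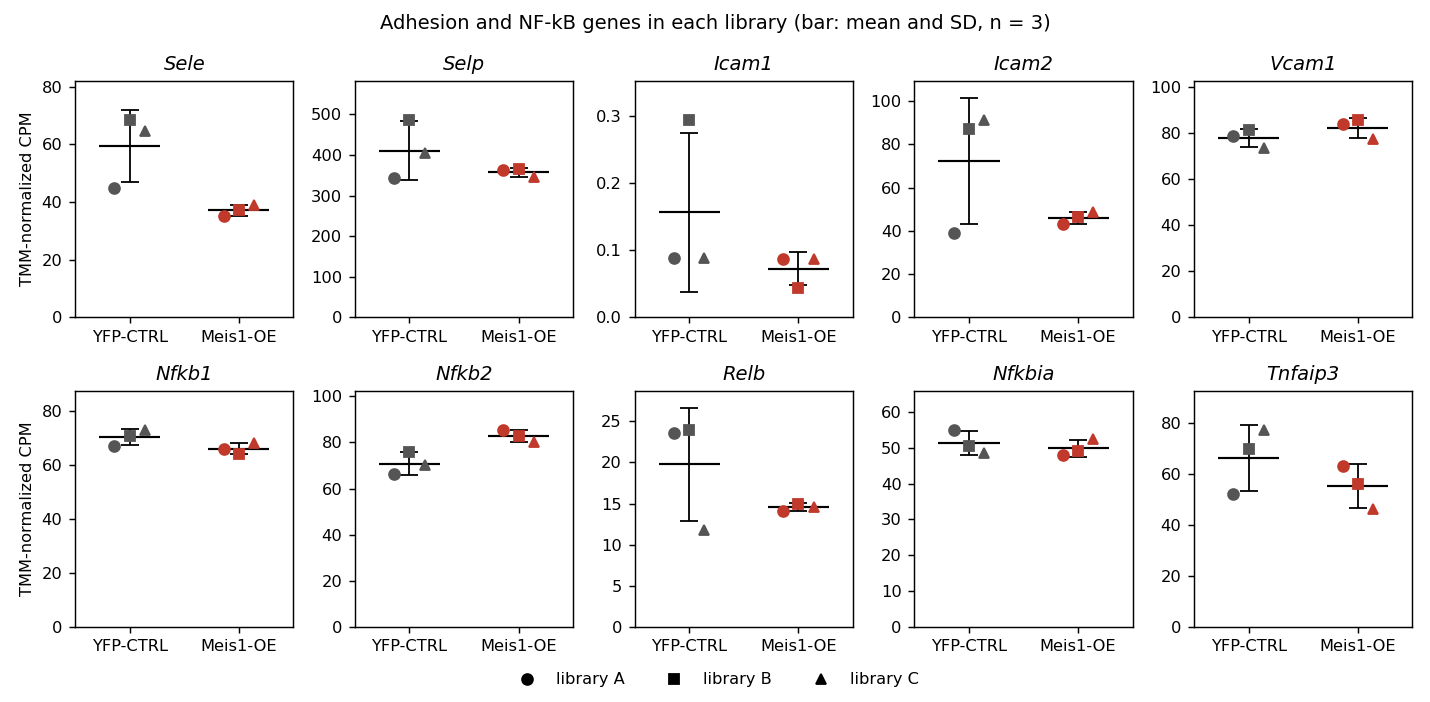
Level of each of the 10 genes in TMM-normalized CPM (y axis, from 0, a separate scale per gene) in the 3 YFP-CTRL and 3 Meis1-OE libraries; points are libraries A, B and C, and black bars are the mean and SD (n = 3). Sele and Nfkb2 separate the conditions, Icam2 and Relb have 1 YFP-CTRL library apart from the other 2, and Icam1 is under 0.3 CPM.

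**Figure D3:**
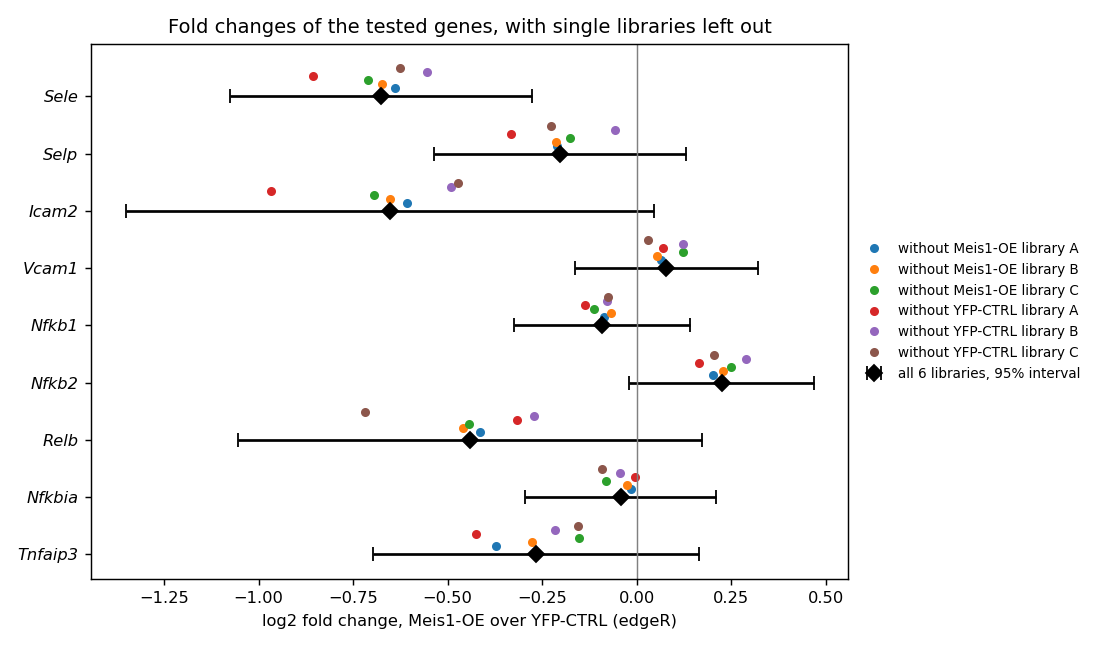
Log2 fold change of the 9 tested genes, Meis1-OE over YFP-CTRL, from edgeR; black diamonds with bars are the values and 95% intervals over all 6 libraries, and coloured points are the values with 1 library left out. The interval of Sele, -1.08 to -0.28, is the one that does not include 0, and Icam2 and Relb move most with a single YFP-CTRL library.

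YFP-CTRL library A had the lowest YFP-CTRL level of Sele, Selp, Icam2, Nfkb1, Nfkb2 and Tnfaip3, while YFP-CTRL library C had the lowest level of Relb, Vcam1 and Nfkbia. The coefficient of variation of the 9 tested genes was 3.11% to 15.5% among Meis1-OE libraries and 4.15% to 40.2% among YFP-CTRL libraries. Without YFP-CTRL library A, 2 of the 9 (Icam2 and Sele) passed the threshold downward, where 6.36% of all tested genes passed in either direction, and leaving out library C gave 2 (Relb and Sele), where 31.7% of all tested genes passed, 15.2% in the lower direction. With the proliferation score as covariate, 1 (Sele, log2 fold change -0.92, adjusted p = 0.0396 from edgeR) did, where 3.82% of all tested genes were called, 2.16% higher and 1.66% lower. That score did not overlap between conditions, so the covariate fit cannot separate proliferation from condition. None passed upward in any of the 14 alternatives, which called 0.701% to 16.5% of all tested genes higher.

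The other genes of the pathway were taken from 6 lists with 129 genes, of which 99 were tested. At an adjusted p of 0.05 from edgeR, 7 were higher in Meis1-OE EC and 2 lower, which is 9.09% of those tested beside 6.87% of all genes. Their median log2 fold change was 0.00, against 0.01 over all tested genes.

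Of the ligands that start NF-kB signalling, 3 of 12 were tested, and 7 had at most 3 counts in every library. Tnf, Il1b, Tnfsf14 and Cd40lg had no count in any library, which allows up to 3 counts in each. Il33, a nuclear alarmin of the interleukin-1 family, rose from 4.50, 5.56 and 3.28 CPM with YFP-CTRL to 20.7, 24.3 and 21.3 CPM with Meis1-OE. The conditions were far apart, with a log2 fold change of 2.31 (standard error 0.21, adjusted p = 0.00307 from edgeR). It passed the threshold in 14 of 14 alternatives.

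Among receptors, 13 of 21 were tested, 1 was higher and 0 were lower, with 2 and 1 at an unadjusted p under 0.05 and 2 and 0 by DESeq2. Tnfrsf1a, the widely expressed receptor of tumor necrosis factor, had a log2 fold change of -0.09 (adjusted p = 0.750 from edgeR), and Tnfrsf1b, its second receptor, had no count in any library. Tnfrsf11a, the receptor RANK, rose from 0.147, 0.221 and 0.330 CPM with YFP-CTRL to 1.40, 2.75 and 3.43 CPM with Meis1-OE. These were 5 to 15 counts against 64 to 159 counts per library, a log2 fold change of 3.40 (standard error 0.46, adjusted p = 0.00969 from edgeR). The adjusted p from edgeR reached 0.0589 when single libraries were left out and was 0.0542 with the proliferation covariate.

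Of 27 adaptors and ubiquitin enzymes, 25 were tested, 1 was higher and 0 were lower, with 4 and 1 at an unadjusted p under 0.05 and 1 and 0 by DESeq2. Irak2, a kinase-like adaptor of interleukin-1 and Toll-like receptors, rose from 9.60, 11.4 and 13.9 CPM with YFP-CTRL to 22.5, 26.4 and 27.1 CPM with Meis1-OE. That is a log2 fold change of 1.12 (standard error 0.17, adjusted p = 0.0136 from edgeR), and the adjusted p reached 0.0875 when single libraries were left out.
The 17 other subunit, IkB and IKK genes held none past the threshold among 16 tested, with 2 higher and 4 lower at an unadjusted p under 0.05 and 0 and 0 by DESeq2. Of these 16 tested genes, 15 had a log2 fold change between -0.5 and 0.5, as did 11334 of all 16065 tested genes. When YFP-CTRL library C was left out, edgeR called 3 upward and 4 downward, where this fit called 31.7% of all genes. Rela, which encodes the activating subunit of the classical dimer and was picked out after its values were seen, was at 131, 135 and 123 CPM with YFP-CTRL. With Meis1-OE it was at 105, 99.5 and 103 CPM, without overlap, as were 15.9% of all tested genes in the lower direction. The log2 fold change of Rela was -0.34, with edgeR giving an adjusted p of 0.0795. Of the 16 tested genes, 8 had no overlap, 4 higher and 4 lower, where 33.1% of all tested genes had none. Those higher were Ikbkg (log2 fold change 0.33, edgeR adjusted p = 0.123), Map3k14 (0.48, 0.140), Nfkbie (0.30, 0.363) and Nkiras1 (0.12, 0.692). Those lower were Rela, Nfkbib (log2 fold change -0.59, edgeR adjusted p = 0.174), Tab2 (-0.33, 0.180) and Ikbkb (-0.20, 0.298).

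Other adhesion and transmigration molecules of endothelium were tested for 20 of 22 genes, of which 2 were higher and 1 was lower, with 3 and 5 at an unadjusted p under 0.05 and 3 and 4 (Alcam, Mcam, Cd34 and Cdh5) by DESeq2. Jam2, a junctional adhesion molecule that binds the integrin VLA-4, rose from 27.8, 31.1 and 24.6 CPM with YFP-CTRL to 84.4, 114 and 133 CPM with Meis1-OE (log2 fold change 1.99, standard error 0.19, adjusted p = 0.0035 from edgeR). It passed in 14 of 14 alternatives. Vwf, the clotting factor stored in Weibel-Palade bodies with P-selectin, rose from 7.25 ± 0.958 CPM to 24.3, 77.6 and 87.1 CPM with Meis1-OE. Meis1-OE library A was well below the others but above all YFP-CTRL libraries, and the log2 fold change of 3.12 (standard error 0.46, adjusted p = 0.0120 from edgeR) stands beside -0.20 for Selp. Its adjusted p was 0.0626 without Meis1-OE library B, 0.0555 without Meis1-OE library C, 0.0753 without YFP-CTRL library B and 0.0579 with the proliferation covariate.
Cd34, a sialomucin that can carry selectin ligands, fell from 616 ± 23.1 CPM to 385 ± 0.766 CPM (SD, n = 3 each), with a log2 fold change of -0.68 (standard error 0.09, adjusted p = 0.0108 from edgeR). Without single Meis1-OE libraries its adjusted p was up to 0.0933. Cdh5, the junction gene whose product was part of the sort, had a log2 fold change of -0.70 and an adjusted p of 0.0535 from edgeR.

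Of 30 other target genes of NF-kB in activated endothelium, 22 were tested, 2 were higher and 1 was lower, with 4 and 6 at an unadjusted p under 0.05. DESeq2 called 4 higher (Cx3cl1, Csf2, C3 and Cfb) and 5 lower (Cxcl1, Cxcl2, Csf1, Ptgs2 and Ier3). It called 6.18% higher and 6.13% lower of all genes to which it gave an adjusted p. The complement genes C3 and Cfb were higher, from very low levels. C3 went from 1, 7 and 7 counts with YFP-CTRL to 72, 157 and 158 counts with Meis1-OE (log2 fold change 4.49, standard error 0.55, adjusted p = 0.00762 from edgeR) and passed in 13 of the 13 alternatives that tested it. Cfb went from 1, 2 and 8 counts to 25, 20 and 26 counts (log2 fold change 2.49, standard error 0.55, adjusted p = 0.0429 from edgeR), and its adjusted p reached 0.178 without Meis1-OE library C.
Ptgs2, the inducible cyclooxygenase of prostanoid synthesis, fell from 427, 515 and 157 CPM with YFP-CTRL to 112, 65.2 and 58.5 CPM with Meis1-OE. YFP-CTRL library C was closest to the Meis1-OE libraries without overlapping them, and edgeR gave a log2 fold change of -2.22 ± 0.46 (standard error, adjusted p = 0.0349). Leaving out any library other than YFP-CTRL library C raised the adjusted p to between 0.0725 and 0.170, and with the proliferation covariate the log2 fold change was -1.20 (adjusted p = 0.185 from edgeR). The chemokine Cxcl1 and the growth factor Csf1, picked out after their values were seen, had the same high YFP-CTRL libraries A and B: Cxcl1 was at 39.4, 30.8 and 12.9 CPM and Csf1 at 58.7, 43.1 and 17.0 CPM with YFP-CTRL. In Meis1-OE libraries Cxcl1 was at 12.6 to 14 CPM and Csf1 at 16.1 to 19.9 CPM, around the level of YFP-CTRL library C. Their log2 fold changes of -1.04 and -1.11 had adjusted p-values of 0.129 and 0.134 from edgeR, while DESeq2 called both lower. Cx3cl1, a chemokine gene likewise picked out afterwards, rose from 7.09, 7.06 and 10.4 CPM to 12.4, 16.1 and 16.5 CPM with Meis1-OE. Its libraries did not overlap, and edgeR estimated a log2 fold change of 0.87 (adjusted p = 0.0520), while DESeq2 called it higher. Among the 22 tested targets, the conditions were separate upward for 4 genes and downward for 3. Over all tested genes they were separate upward for 17.2% and downward for 15.9%.

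**Figure D4:**
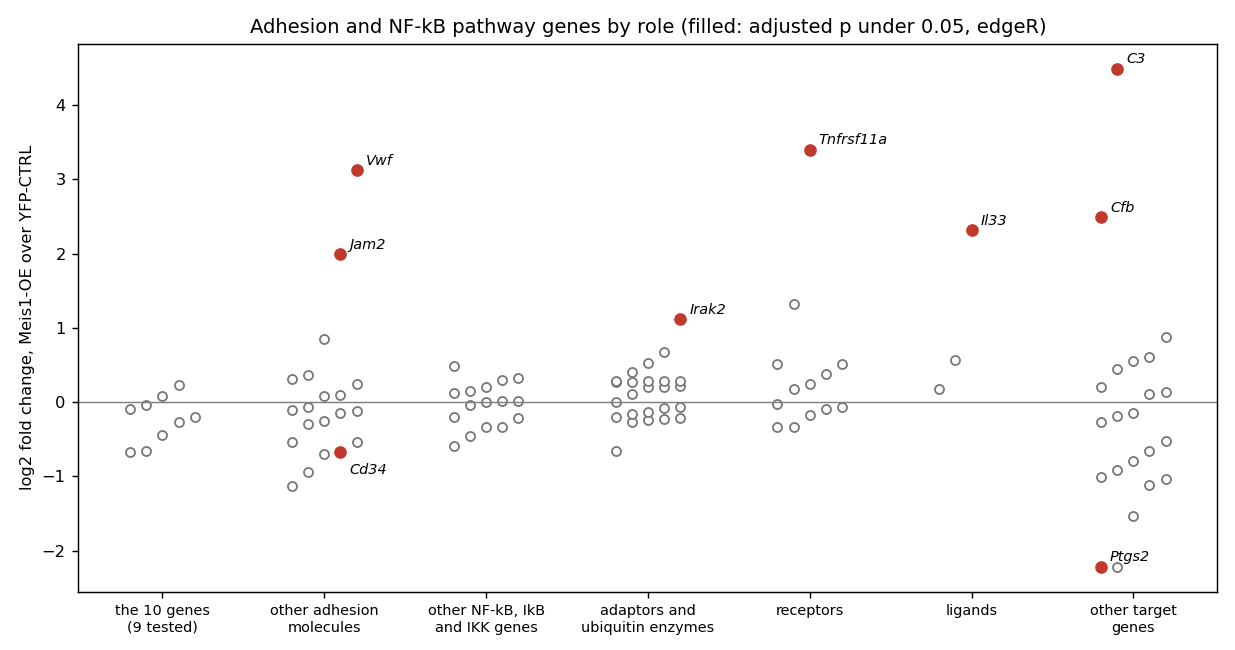
Log2 fold change (y axis, Meis1-OE over YFP-CTRL, edgeR) of the 9 tested genes of the 10 and of 99 tested pathway genes grouped by role (x axis); each point is a gene, and filled points with names passed an adjusted p of 0.05. The 9 genes lie between -0.68 and 0.23, and the 9 named pathway genes are Vwf, Jam2, Cd34, Irak2, Tnfrsf11a, Il33, C3, Cfb and Ptgs2.

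For each tested gene, the pathway gene with the most similar profile was sought among the 99 by the root mean square distance of log2(CPM + 1) centred over the 6 libraries. The nearest was Alcam for Sele (distance 0.0830), Csf3 for Selp (0.0959) and for Tnfaip3 (0.148), Stab1 for Icam2 (0.201) and Nkiras1 for Vcam1 (0.0652). Traf2 was nearest to Nfkb1 (0.0580), Irak1 to Nfkb2 (0.0604), Chuk to Relb (0.141) and Traf6 to Nfkbia (0.0421). Csf3 was at under 0.6 CPM in every library, where adding 1 before taking logs flattens a profile. Alcam, an adhesion molecule of the immunoglobulin superfamily, was at 32.6, 46.8 and 43.5 CPM with YFP-CTRL and 28, 28.4 and 28.7 CPM with Meis1-OE, the same order as Sele, with a log2 fold change of -0.53 (adjusted p = 0.0824 from edgeR).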

How the data were processed

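Ribodepleted RNA-seq of 3 Meis1-OE and 3 YFP-CTRL libraries was analysed. The authors deposited estimated counts per gene symbol, without normalization, for 54429 genes. The processing notes name build mm10. The aligner, counting tool and annotation are not given in the sources used here. No source says whether reads were counted by strand. Conditions came from the sample labels and the column names. The columns carry letters that match no label, so libraries were not paired.

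Counts were rounded to whole numbers and analysed in R 4.3.3 with edgeR 4.0.16 (filterByExpr, which kept 16065 genes, TMM, quasi-likelihood test, Benjamini-Hochberg adjusted p of 0.05). The study used DESeq2, which was run as an alternative (version 1.42.0). Standard errors came from the F statistic. Both programs were run on simulated data with less spread between replicates than these data and equal spread in both conditions. That run does not describe how they perform here. With 3 libraries against 3, the smallest exact two-sided permutation p is 0.1, so each gene's test used the spread shared across genes in the edgeR model. CPM are TMM-normalized unless given of the total count. Promoter windows came from RefSeq (GRCm38.p6). Reads carried no molecular identifiers, so intervals and floors describe counting error alone.

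The genes, gene lists and alternatives were chosen with earlier results of these data known. The genes to name were the 10 genes, Meis1, pathway genes past the threshold without overlap between conditions, and the nearest profile of each tested gene. Alternatives were other size factors, library totals, other filters, a robust fit, DESeq2, each library left out, a replicate block and a proliferation covariate. Figures were drawn with matplotlib 3.10.9.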

Additional observations from a re-analysis of the deposited data

How the results depend on the processing

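Of the 10 genes, 0 passed upward under each of the 14 alternatives, and the count that passed downward was 0 in all edgeR fits of all 6 libraries without a covariate, 1 with DESeq2, 1 with the proliferation covariate, and 0 to 2 when single libraries were left out. Directions reversed for Nfkb1 (0.052) and Nfkbia (0.10) on library totals without TMM factors, where the median over all genes rose to 0.15 from 0.01. They also reversed for Relb (0.21) and Nfkbia (0.055) with the proliferation covariate. These were the only reversals among the 9 tested genes of the 10 and the pathway genes past the threshold. The directions of other named genes were not followed through the alternatives. On library totals, 85.4% of the calls over all genes were upward, against 60.3% with TMM.

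The count of pathway genes that were higher, 7, was 12 on library totals, 4 with at least 10 counts in every library, 11 with DESeq2, 4 with the covariate, and 3 to 19 when single libraries were left out. The count that were lower, 2, was 9 with DESeq2 and 0 to 18 when single libraries were left out, with the upper ends of both ranges, 19 and 18, without YFP-CTRL library C. Of the 7 higher pathway genes, 3 (Jam2, Il33 and C3) remained without Meis1-OE library B, without Meis1-OE library C and without YFP-CTRL library B. The cause of these changes was not tested. Over all genes, the number called ran from 131 without Meis1-OE library B to 5215 without YFP-CTRL library C, against 1103.

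A replicate block on the column letter changed no call of the 10 genes (0 higher, 0 lower) and gave 8 higher and 2 lower pathway genes. Deviations of the libraries that share a letter correlated at 0.245 for A, 0.190 for B and 0.0809 for C across genes. Meis1-OE library C correlated best with YFP-CTRL library B (0.249), and the other correlations between different letters ran from -0.301 to -0.0275. These values do not settle whether libraries of a letter are pairs. The letters match no label and were not taken as pairs. Icam1, Tnf, Il1b and Tnfrsf1b had too few counts to compare, and whether depth, expression or the counting step set this was not tested.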
